A study of Mus musculus with 15 samples.

Results

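Mouse induced pluripotent stem cells (iPSC) were differentiated in the direction of smooth muscle, and GFP+ cells sorted on day 13 were set against Kdr+ mesodermal cells sorted on day 5 of the same programme, over all 25206 probe sets of a whole-transcript array. The comparison used 6 of the 15 samples of the series, picked by their labels: 3 day 13 GFP+ samples and 3 day 5 Kdr+ samples, numbered 3, 5 and 6 in both groups. The iPSC line carried Acta2hrGFP, a reporter in which green fluorescent protein (GFP) reports expression of Acta2, which encodes smooth muscle actin, and the series describes a single such line. The day 13 cells were sorted for that reporter and called candidate smooth muscle cells, and the day 5 cells were sorted for Kdr (Flk-1). The remaining samples used for reference were 3 of GFP- cells of day 13 and 3 of GFP+ smooth muscle cells taken directly from mouse aorta. The samples given here include no Kdr- or unsorted cells of day 5, and the medium, the growth factors and the mouse strain are not given in the sources used here. In bulk samples such as these, fewer cells of a type and less RNA per cell cannot be told apart.

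Kdr is a receptor for vascular endothelial growth factor that marks early mesoderm able to give rise to blood, endothelium, heart muscle and smooth muscle. Smooth muscle cells contract with filaments of smooth muscle actin and smooth muscle myosin, whose genes are controlled by serum response factor with its partner myocardin, and they also build the collagen and elastic fibres of the vessel wall. Cells that divide and secrete matrix usually carry less of the contractile proteins than resting cells of the adult aorta.

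The values were log2 signals of the arrays, deposited after RMA, a background correction and quantile normalization that gives 1 value per probe set. The medians of the 6 samples lay between 4.08 and 4.23. The arrays came with no call of presence, so values near the lower quartile of about 2.80 may be background. Differences are given as day 13 GFP+ minus day 5 Kdr+, with the standard error (SE) of a limma fit over all 15 samples and a p-value adjusted over all probe sets, and a gene was called higher or lower at an adjusted p under 0.05. The samples are labelled as biological triplicates with no more said about the cultures, so each p-value measures the spread between these triplicates. Day 13 GFP+ sample 3 stood apart from samples 5 and 6 for a group of genes described near the end, and values without it are given beside the genes it moved most. Differences here are relative to the scaling of the arrays: the median difference over all probe sets was -0.0042, and centring every array on its median moved it to -0.108.

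The sort genes differed between day 13 GFP+ and day 5 cells in the direction of their labels. The day 5 cells were not sorted for the reporter, so Acta2 is no check of the GFP sort here. Between GFP+ and GFP- cells of day 13 it did not pass, as given near the end. Acta2 had a log2 signal of 11.23, 11.47 and 11.27 in the day 13 GFP+ samples, against 5.44, 6.22 and 6.13 in the day 5 samples. Kdr stood at 6.37, 5.77 and 5.84 in the day 13 GFP+ samples and at 9.69, 9.59 and 9.65 in the day 5 samples. Both pairs of groups were far apart. Over all probe sets the samples of the groups did not overlap in 45.3%, so a lack of overlap alone is common here. Both genes were used to sort the cells, Acta2 through its reporter, so these differences are not a finding. Of the other genes that define smooth muscle, Tagln (transgelin) averaged 9.39 in day 13 GFP+ cells, against 11.20 in the aortic cells, and genes of the mature contractile cell lay farther below the aorta. Cnn1 (calponin) reached 6.14 ± 0.40 in day 13 GFP+ cells, against 10.89 ± 0.04 in the aortic cells (SD, n = 3 each). Myh11, the smooth muscle myosin heavy chain, reached 4.64 ± 0.24 in day 13 GFP+ cells, against 11.03 ± 0.07 in aortic cells. Smtn (smoothelin) stood at 7.74 against 10.79 and Lmod1 (leiomodin) at 4.82 against 9.19 in the same order. All 4 late genes were lower in day 13 GFP+ cells than in aortic cells (adjusted p = 5.01e-10, 9.18e-14, 6.09e-12 and 4.99e-13 in this order).

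Between the groups, 3598 probe sets (14.3%) were higher in day 13 GFP+ cells and 4269 (16.9%) were lower, together 31.2% of those tested. The counts of gene lists below stand beside these shares, and a count near them is no result about its list. With a cyclic loess scaling the excess of lower calls turned, to 4160 higher and 3700 lower. At 2-fold or more, 1786 were higher and 1919 lower, at 8-fold or more 222 were higher and 68 lower, and at 32-fold or more 24 were higher and 4 lower. The 15 named genes with the highest differences were mostly secreted: the collagen crosslinker Lox, Col12a1, Postn, Col3a1, Igfbp7, Thbs1, Clu, Ogn, Bgn, Ptn, Col1a2, Tnc, Igfbp5 and Tgfbi, with Anxa1, a protein that binds membranes in the presence of calcium, beside them. They lay between 45.1-fold and 158-fold higher. The 15 lowest included 6 regulators of transcription (Mixl1, Eomes, Foxh1, Msx2, Hand1 and Sall4), the Nodal co-receptor Tdgf1, the ligand Wnt3 and the DNA methyltransferase Dnmt3b, and lay between 13.2-fold and 132-fold lower. In the scatter of mean levels, the gains reach farther from the diagonal than the losses.

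**Figure D1:**
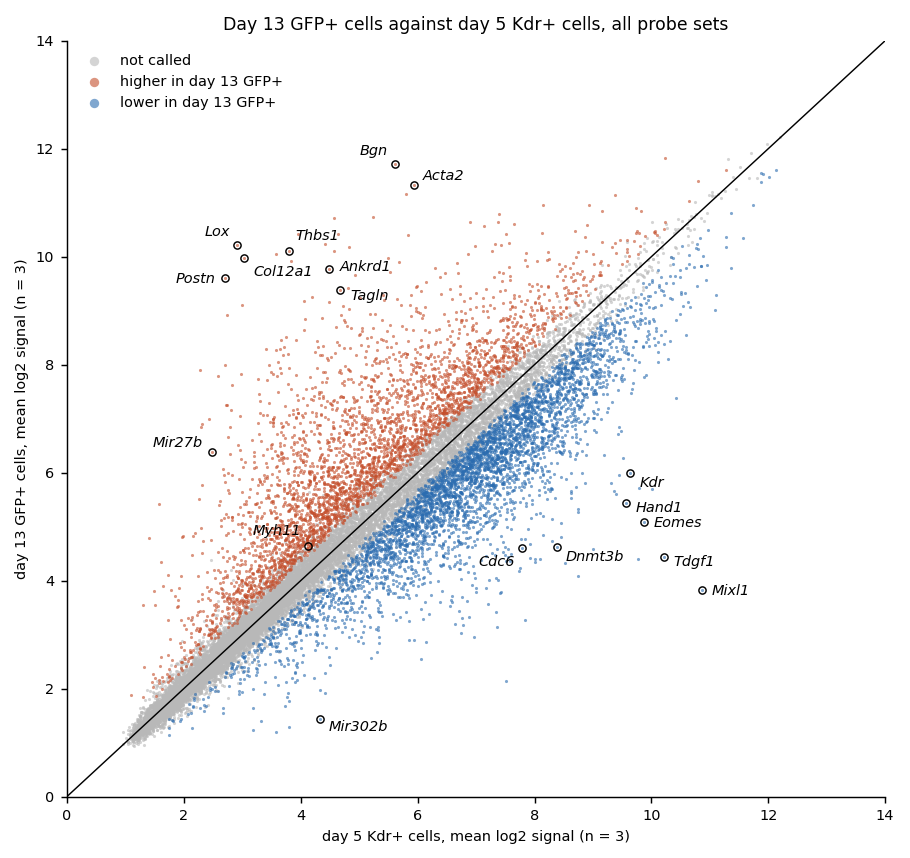
Mean log2 signal of each probe set in day 13 GFP+ cells (vertical axis) against day 5 Kdr+ cells (horizontal axis), 3 samples each; coloured points passed an adjusted p under 0.05 and the line marks equal levels. Of 25206 probe sets, 3598 were higher and 4269 lower. The genes of matrix and contraction with labels lie well above the line, except Myh11, which lies near it.

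A few genes crossed from the lower to the upper quartile of the arrays. A total of 14 probe sets had a mean under the 25th percentile (2.80) at day 5 and over the 75th percentile (6.15) in day 13 GFP+ cells, and 1 probe set without a gene name did the reverse. The 13 named ones, listed after their values were seen, were the matrix genes Postn, Aspn, Lum and Dcn, Anxa1, the large scaffold gene Ahnak2, the guidance factor Sema3c, the protease inhibitor Serpina3n, the relaxin receptor Rxfp1, the tendon gene Tnmd, the DNA sensing adaptor Sting1, the clock repressor Bhlhe41 and the microRNA gene Mir27b. Anxa1 read 8.89, 9.00 and 8.86 in day 13 GFP+ cells, against 2.85, 2.65 and 2.72 in day 5 cells. Rxfp1 read 6.55, 7.11 and 7.01 in day 13 GFP+ cells and 2.31, 2.26 and 2.38 in day 5 cells, and in the aortic cells its mean was back at 2.40. Neither gene had a day 13 GFP+ sample near any day 5 sample. Sample 3 moved 7 of the 13 by more than 1.5 times: without it the differences were 5.89 for Tnmd (with it 4.05), 7.50 for Postn (6.90), 6.08 for Aspn (5.20), 5.36 for Sema3c (4.54), 4.50 for Sting1 (3.90), 4.32 for Dcn (3.56) and 3.60 for Serpina3n (4.51).

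Of 17 measured genes of the actin thin filament, 12 were higher in day 13 GFP+ cells, 1 was lower and 4 did not pass, with a median difference of 1.19. The sort gene Acta2 is among the 12 and is no finding. Tagln, an actin-binding protein of smooth muscle, read 9.43, 9.44 and 9.29 in day 13 GFP+ samples, against 4.42, 5.05 and 4.53 in day 5 samples (log2 difference 4.72 ± 0.16, adjusted p = 2.33e-11). Actg2, the enteric smooth muscle actin, read 7.29, 7.03 and 6.44 in day 13 GFP+ samples, against 3.50, 3.42 and 2.86 in day 5 samples (log2 difference 3.66 ± 0.23, adjusted p = 8.37e-09). Neither gene had overlapping groups, and the 3 samples of each group lay close together beside the distance between groups. Actc1, the cardiac actin, rose by 3.11 to a mean of 6.76. The filament regulators Cald1 (caldesmon), Tpm2 and Tpm1 (tropomyosins) rose by 2.11, 1.83 and 1.19. Cnn1 rose by only 0.97, Smtn by 0.73 and Lmod1 by 0.72. The member that fell was the cytoplasmic actin Actb (log2 difference -0.50 ± 0.11, adjusted p = 0.00228), and with a cyclic loess scaling its difference was -0.31 with an adjusted p of 0.0567.

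Of 14 measured genes of myosin and of the control of its light chain, 6 were higher, 0 lower and 8 did not pass, with a median difference of 0.41. Myl9, the regulatory light chain of smooth muscle and non-muscle myosin, read 9.19, 9.28 and 9.20 in day 13 GFP+ samples, against 5.92, 5.67 and 5.34 in day 5 samples (log2 difference 3.58 ± 0.19, adjusted p = 1.26e-09). Mylk, the kinase that switches that light chain on, read 4.93, 5.95 and 5.36 in day 13 GFP+ samples, against 4.34, 4.37 and 4.22 in day 5 samples (log2 difference 1.10 ± 0.24, adjusted p = 0.00154). Myh11 read 4.36, 4.78 and 4.78 in day 13 GFP+ samples and 4.02, 4.27 and 4.10 in day 5 samples (log2 difference 0.51 ± 0.15, adjusted p = 0.0145). Myl9 was therefore far above day 5, whereas the Myh11 groups were close and its call was lost in several settings: without day 13 GFP+ sample 5 the difference was 0.44 (adjusted p = 0.0691), without sample 6 0.44 (0.0688), without day 5 sample 3 0.46 (0.0636) and after repeated quantile normalization 0.39 (0.0606). The non-muscle heavy chains Myh10 and Myh9, which most cells use, rose by 0.96 and 0.61, and the small GTPase gene Rhob rose by 1.19. Ppp1r14a (CPI-17), an inhibitor of the light chain phosphatase that is high in smooth muscle, read 6.86 in day 13 GFP+ cells and 6.63 in day 5 cells and did not pass (adjusted p = 0.427), while it averaged 10.20 in the aortic cells.

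**Figure D2:**
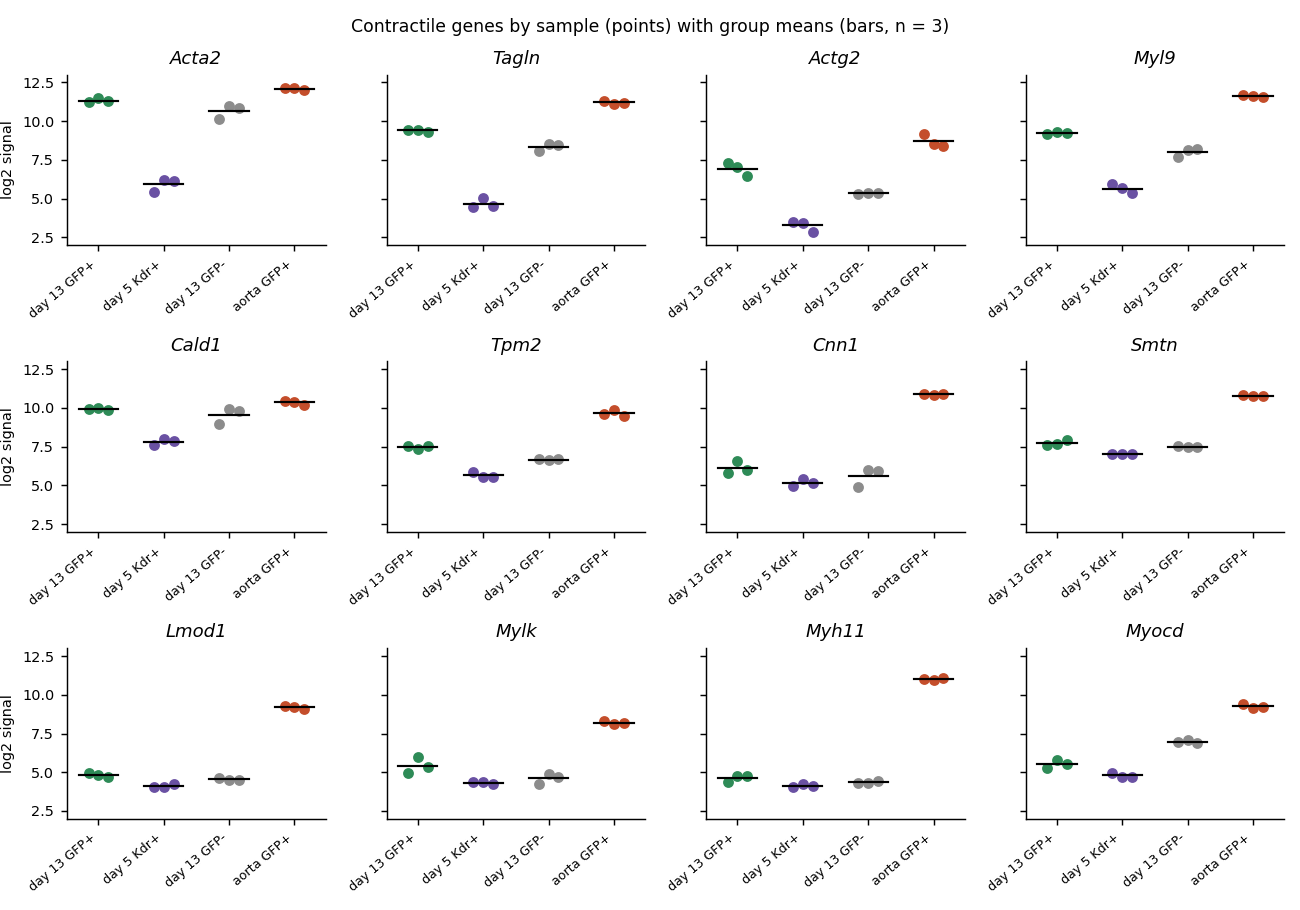
Log2 signal of 12 contractile genes in each sample of day 13 GFP+ cells, day 5 Kdr+ cells, day 13 GFP- cells and aortic GFP+ cells; points are samples and bars are means of 3. Acta2, Tagln, Actg2 and Myl9 lie far above day 5, whereas Myh11, Lmod1, Cnn1 and Smtn rise less and stay far below the aortic samples.

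Genes of adhesion plaques, actin crosslinks and intermediate filaments were also counted: 18 of 22 were higher, 0 were lower and the median difference was 0.73. The largest were Des (desmin, the muscle intermediate filament) with 3.05, Parva (parvin, a partner of integrin-linked kinase) with 2.85, Csrp2 and Csrp1 (LIM proteins of smooth muscle) with 2.08 and 1.64, Flnc (filamin C) with 1.64 and Lpp with 1.30. Desmin read 6.99, 7.68 and 7.62 in day 13 GFP+ samples and 4.96, 3.99 and 4.18 in day 5 samples, and its groups did not overlap.

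Among 19 regulators of transcription linked to smooth muscle and mesenchyme, 12 were higher and 2 lower. Prrx1, a homeobox factor of limb and vessel mesenchyme, read 7.70, 8.15 and 7.96 in day 13 GFP+ samples, against 4.69, 3.95 and 4.17 in day 5 samples (log2 difference 3.66 ± 0.27, adjusted p = 4.49e-08). The MADS box factors Mef2c and Mef2a rose by 2.61 and 1.50, the cofactor Fhl2 by 2.30 and the Notch target Heyl by 1.62. Myocd (myocardin), the cofactor that switches on contractile genes, read 5.25, 5.81 and 5.54 in day 13 GFP+ samples, against 4.95, 4.72 and 4.71 in day 5 samples (log2 difference 0.74 ± 0.15, adjusted p = 0.000818). Its rise was small: the GFP- cells of the same day averaged 6.97 and the aortic cells 9.24, and day 13 GFP+ cells were below GFP- cells (difference -1.44, adjusted p = 3.34e-05). Srf, its DNA-binding partner, fell by 0.58 (adjusted p = 0.00699), and the other member that fell was Hey2, a Notch target that represses transcription (-0.91). Klf4, which opposes the contractile programme, rose by 0.85. The mesenchymal factor Tcf21 was higher by 1.10, a call that was lost without day 13 GFP+ sample 5 (0.92, adjusted p = 0.0786), without sample 6 (0.77, 0.1), without day 5 sample 3 (1.01, 0.0625) and in a fit of the 2 groups alone (1.10, 0.0656).

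The YAP and TEAD group, which couples cell shape and stretch to transcription, was divided: of 17 genes, 11 were higher and 5 lower. The classical targets rose, with Ankrd1 at 9.83, 10.09 and 9.41 in day 13 GFP+ samples, against 4.64, 4.32 and 4.48 in day 5 samples (log2 difference 5.30 ± 0.28, adjusted p = 1.33e-09), and with differences of 3.57 for the receptor kinase Axl, 3.19 for Ccn1 (Cyr61) and 3.11 for Ccn2 (CTGF). The members that fell were Amot, a junction protein that holds YAP in the cytoplasm (-3.04), the DNA-binding partners Tead4 (-2.32) and Tead2 (-0.97), the LIM protein Ajuba (-0.57) and Yap1 itself (-0.36). The calls of the last pair were weak: that of Ajuba was lost without day 5 sample 3 (-0.47), and that of Yap1 when any 1 of the 6 samples was left out (-0.40 to -0.32), so that 3 were lower without day 5 sample 3. The Yap1 difference also shrank with the scaling, to -0.24 (adjusted p = 0.19) after repeated quantile normalization and -0.15 (0.47) with cyclic loess.

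A CArG box, the binding motif of serum response factor, was looked for on both strands of the promoters in RefSeq (GRCm38.p6). Only the strict form was counted: CC, a core made of A and T alone, and GG. A box with any other base in its core was missed. Each promoter held the 250 bases before the start of the gene and a short stretch after it. The motif was found in 3 of 14 thin filament genes with a promoter in the table (21.4%, in Actc1, Acta1 and Cnn2). It was in 1 of 12 genes of the myosin group (8.33%, in Myl9), beside 1.81% of 27025 genes. For Myl9, the largest gain of its group, the 250 bases before the start are shown (chr2:156775214-156775463, plus strand), with the match in capitals.
Myl9: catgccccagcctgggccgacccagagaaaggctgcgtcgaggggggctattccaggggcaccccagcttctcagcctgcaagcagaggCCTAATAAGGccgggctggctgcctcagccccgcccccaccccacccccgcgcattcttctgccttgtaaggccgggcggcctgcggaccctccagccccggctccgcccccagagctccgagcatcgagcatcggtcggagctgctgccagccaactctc
The match begins at base -161 from the start of the gene. A match is a description of these letters and not a measured binding site.

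Genes of the extracellular matrix were next counted by their role. Of 11 fibrillar collagen chains, 8 were higher and 0 lower, with a median difference of 3.39. Col3a1, a chain of distensible tissues such as vessel wall, read 9.82, 10.04 and 10.27 in day 13 GFP+ samples, against 3.45, 3.69 and 3.57 in day 5 samples. Col1a1 and Col1a2, the 2 chains of type I collagen, rose together by 5.36 and 5.82, and Col5a2, Col5a1 and Col11a1, which start and limit the growth of fibrils, by 4.43, 3.39 and 4.48. In Col3a1 the lowest day 13 GFP+ sample was far above the highest day 5 sample. Day 13 GFP+ cells were above aortic cells in Col1a1 (11.16 against 9.48, adjusted p = 0.00103), in Col5a2 (8.04 against 6.35, 0.000474) and in Col11a1 (8.17 against 3.45, 2.87e-10).

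Of 11 chains of the other collagens, 10 were higher. Col12a1, which sits on the surface of collagen fibrils, read 9.06, 10.29 and 10.55 in day 13 GFP+ samples, against 3.22, 3.06 and 2.80 in day 5 samples (log2 difference 6.94 ± 0.51, adjusted p = 3.75e-08). The 3 chains of type VI collagen, which forms beaded filaments around cells, rose by 3.71 (Col6a1), 2.09 (Col6a2) and 3.16 (Col6a3), and the vessel chains Col8a1 and Col8a2 by 2.72 and 2.29. In Col12a1 the day 5 samples lay near the lower quartile of the arrays and the day 13 GFP+ samples among their highest values.

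The enzymes that make collagen stable rose without exception among those measured: 15 of 15 were higher, with a median difference of 3.20. Lox, the lysyl oxidase that crosslinks collagen and elastin, read 9.71, 10.43 and 10.50 in day 13 GFP+ samples, against 2.83, 3.10 and 2.81 in day 5 samples, a 158-fold difference (log2 difference 7.30 ± 0.42, adjusted p = 2.91e-09). Its relatives Loxl1 and Loxl2 rose by 4.09 and 4.09. The proline hydroxylase chain P4ha3 read 6.49, 8.32 and 8.37 in day 13 GFP+ samples, against 3.23, 3.12 and 3.47 in day 5 samples, a difference of 4.46 that became 5.08 without sample 3. The enhancer of procollagen cleavage, Pcolce, rose by 4.22, and the lysine hydroxylase Plod2 by 3.50. For Lox and P4ha3 alike no sample of one group came near the other group.

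Small proteoglycans and matricellular proteins, which bind collagen and tune growth factors, rose in 18 of 20 cases, with the highest median of all lists (4.60). Bgn (biglycan) read 11.28, 11.92 and 11.93 in day 13 GFP+ samples, against 5.62, 5.76 and 5.44 in day 5 samples (log2 difference 6.10 ± 0.34, adjusted p = 2.5e-09). Postn (periostin) read 8.42, 10.03 and 10.37 in day 13 GFP+ samples, against 2.09, 3.03 and 2.98 in day 5 samples, a difference of 6.90 that was 7.50 without sample 3. Ogn (osteoglycin) read 6.91, 10.08 and 10.32 in day 13 GFP+ samples, against 2.93, 2.68 and 3.37 in day 5 samples, a difference of 6.11 that was 7.21 without sample 3 and 5.50 without sample 6. Sample 3 was the lowest of the day 13 GFP+ samples in Postn and Ogn but still above every day 5 sample. The trimeric glycoproteins Thbs1 (thrombospondin 1) and Tnc (tenascin C) rose by 6.31 and 5.78, and Tgfbi by 5.49.

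Elastic fibre genes were higher in 11 of 15 cases and lower in 1, with a median difference of 2.59. Fbn2, the fibrillin of the embryo, rose by 2.85 and was far above the aortic cells (9.40 against 3.37), whereas Fbln5, which guides elastin assembly, rose by 3.51 and was below them (7.45 against 9.95). Both differences from the aorta passed (adjusted p = 4.72e-13 and 0.000171). Ltbp1, which stores latent TGF-beta, rose by 3.62, Emilin1 by 3.55, and the microfibril genes Mfap4 and Mfap2 by 2.90 and 3.31. Without day 13 GFP+ sample 3 the Mfap2 difference was 3.93. The member that fell was the fibulin Efemp1 (-1.16). Basement membrane genes were higher in 12 of 18 cases and lower in 0, led by Nid1 (nidogen, 4.23), Lamc1 and Lamb2 (laminin chains, 2.05 and 1.78) and the type IV collagen chains Col4a2, Col4a5 and Col4a1 (1.92, 1.72 and 1.69).

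Proteases that cut matrix and their inhibitors rose together, with 16 of 20 higher and 0 lower. The gelatinase Mmp2 read 10.72, 10.76 and 10.90 in day 13 GFP+ samples, against 7.17, 7.52 and 7.47 in day 5 samples (log2 difference 3.41 ± 0.21, adjusted p = 4.91e-09), and the other gelatinase, Mmp9, rose by 2.85. The inhibitors Timp3 and Timp1 rose by 3.93 and 3.83, and the proteoglycan-cutting Adamts1 and Adamts5 by 3.61 and 3.45. In Mmp2 the groups did not overlap, and day 13 GFP+ cells were above aortic cells too (8.20, adjusted p = 6.21e-08).

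Integrins, the receptors through which cells hold matrix, were higher in 14 of 17 cases and lower in 1. Itgb3, whose pair with Itgav binds vitronectin and osteopontin, read 8.97, 7.47 and 7.37 in day 13 GFP+ samples, against 3.52, 4.25 and 3.64 in day 5 samples (log2 difference 4.14 ± 0.36, adjusted p = 2.15e-07). The collagen receptor chains Itga11 and Itga1 rose by 3.39 and 3.23, and Itga8, which smooth muscle carries, by 2.14 to a mean of 7.02, against 4.88 at day 5 and 11.03 in the aorta. Itga7, a laminin receptor of muscle, had 7.38, 5.63 and 5.58 in day 13 GFP+ samples, and its difference of 2.15 fell to 1.56 without sample 3. The integrin that fell was Itga6, a laminin receptor of epithelia and stem cells (-1.52). Itgb3 and Itga6 thus moved in opposite directions between the same samples.

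**Figure D3:**
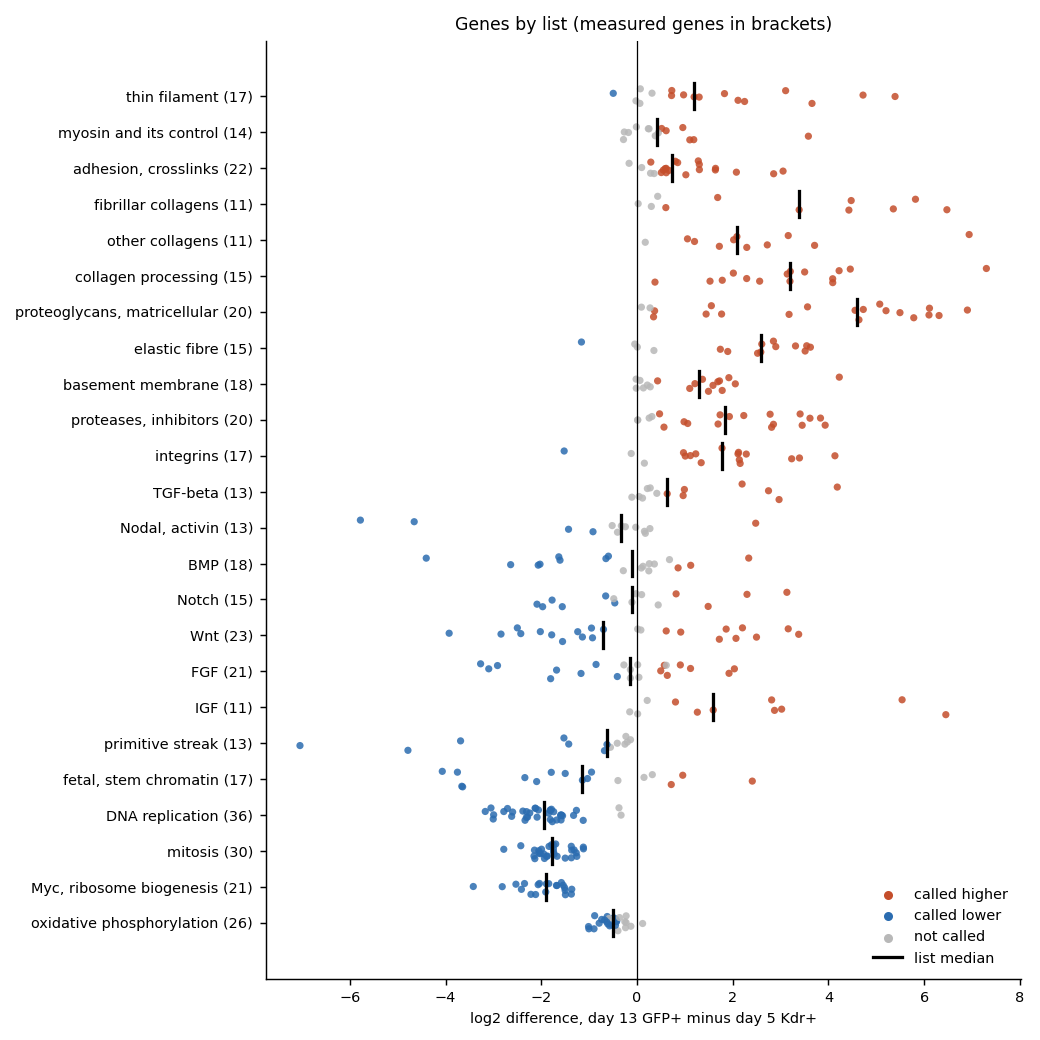
Log2 difference, day 13 GFP+ minus day 5 Kdr+, of each measured gene in 24 lists; coloured points passed an adjusted p under 0.05 and bars are list medians. The medians of the matrix lists lie to the right of 0 and those of the replication, mitosis and ribosome lists to the left, while the Wnt, FGF, Notch and BMP lists spread to both sides.

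Ligands, receptors and feedback genes of the main signalling families were next compared. In the TGF-beta family proper, 7 of 13 genes were higher and 0 lower. Tgfb3 read 7.05, 8.11 and 8.18 in day 13 GFP+ samples, against 3.68, 3.54 and 3.57 in day 5 samples (log2 difference 4.18 ± 0.35, adjusted p = 1.43e-07). Tgfb2 rose by 2.75 and Tgfb1 by 0.96, and of the receptors Tgfbr2 and the co-receptor Eng (endoglin) by 2.20 and 2.97. In the Nodal and activin branch, 1 of 13 was higher, Inhba, the activin A chain (2.48), and 4 were lower: Tdgf1 (Cripto), Foxh1, the receptor Acvr2b and Nodal itself. Tdgf1 read 4.23, 4.39 and 4.69 in day 13 GFP+ samples, against 10.46, 9.99 and 10.21 in day 5 samples. Foxh1, the DNA-binding partner of the Smads in that branch, fell by 4.66, and Nodal, whose groups lay closer, by 0.92. Day 13 GFP+ cells were thus higher in TGF-beta ligands and lower in the co-receptor and the transcription factor through which Nodal acts.

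Of 18 BMP genes, 8 were lower and 3 higher, and with cyclic loess or array weights 6 were higher. Over all probe sets 16.9% were lower and 14.3% higher, so 3 higher among 18 is near the share of all. The target genes Msx2 and Msx1 fell by 4.41 and 2.64, and the ligands Bmp2, Bmp7 and Bmp4 by 2.07, 1.64 and 1.61. Msx2 read 5.11, 4.52 and 4.15 in day 13 GFP+ samples and 8.68, 9.20 and 9.12 in day 5 samples, without overlap. Grem1 (gremlin), a secreted antagonist of BMPs, read 4.99, 6.99 and 6.99 in day 13 GFP+ samples and 3.93, 4.01 and 4.04 in day 5 samples, a difference of 2.33 that was 3.00 without sample 3. The other members that rose were Id2 and the receptor Bmpr2.

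In the PDGF and VEGF list, 9 of 16 were higher and 3 lower, among the latter the sort gene Kdr. Pdgfc read 9.71, 9.65 and 9.79 in day 13 GFP+ samples, against 5.29, 5.69 and 5.62 in day 5 samples (log2 difference 4.19 ± 0.16, adjusted p = 4.68e-11). Vegfa, the main ligand of Kdr, read 9.64, 9.46 and 9.48 in day 13 GFP+ samples, against 6.18, 6.21 and 6.02 in day 5 samples (log2 difference 3.39 ± 0.16, adjusted p = 5.69e-10). The day 5 cells were sorted for Kdr, so the lower level of this receptor in day 13 GFP+ cells is no finding. Pgf, a relative of Vegfa, rose by 2.18. Pdgfrb, the receptor of mural cells, rose by 0.87, while Pdgfra, the receptor of early mesoderm and fibroblasts, had 5.70, 7.54 and 7.40 in day 13 GFP+ samples, against 8.96, 8.54 and 8.59 in day 5 samples. Its difference of -1.81 became -1.23 without sample 3, the lowest of the 3. Of the neuropilin co-receptors, Nrp2 rose by 2.14 and Nrp1 fell by 1.37.

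Of 15 Notch genes, 4 were higher and 6 lower. The ligands Jag1 and Jag2 rose by 3.13 and 2.30, and the early mesoderm ligand Dll3 fell by 1.78. The targets Hes1, Hey1 and Nrarp fell by 1.97, 1.56 and 2.09, against which Heyl rose as given above. Jag1, which smooth muscle uses to signal to its neighbours, read 7.33, 7.40 and 7.30 in day 13 GFP+ samples and 4.28, 4.20 and 4.16 in day 5 samples. Notch3, the receptor of mural cells, was lower by 0.66 (adjusted p = 0.0173), a call that was lost without day 13 GFP+ sample 5 (-0.59, 0.0675), without day 5 sample 5 (-0.60, 0.0651) and with cyclic loess (-0.47, 0.0786).

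Of 23 Wnt genes, 9 were higher and 12 lower. Among the ligands that fell was Wnt3, at 3.41, 3.40 and 3.43 in day 13 GFP+ samples, against 7.74, 7.03 and 7.24 in day 5 samples, beside differences of -2.50 for Wnt2 and -2.02 for Wnt5a. Axin2, a feedback target of the pathway, fell by 2.84. Secreted antagonists went both ways, since Sfrp1, Dkk3 and Dkk2 rose by 3.38, 3.16 and 2.20 while Dkk1 fell by 2.43. Among receptors, Fzd8 rose by 2.50.

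FGF genes were higher in 7 of 21 cases and lower in 8. Several of the 7 were near the threshold, and only 4 passed after median centring or without day 5 sample 5 or 6, and 3 without day 13 GFP+ sample 5 or 6. The embryonic ligands Fgf3, Fgf10, Fgf15 and Fgf8 fell by 3.27, 3.10, 2.92 and 1.81. Fgf10, a ligand of the cardiac and limb mesoderm, read 5.65, 5.43 and 5.51 in day 13 GFP+ samples, against 8.92, 8.36 and 8.60 in day 5 samples. Fgf18 was higher, with 4.84, 7.36 and 7.54 in day 13 GFP+ samples, against 4.46, 4.52 and 4.66 in day 5 samples (log2 difference 2.03 ± 0.60, adjusted p = 0.0151). That call turned on sample 3, which lay near the day 5 level: the difference was 2.90 without it, and 1.65 (adjusted p = 0.0791) and 1.55 (0.0875) without samples 5 and 6. The feedback inhibitor Spry1 rose by 1.92.

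The insulin-like growth factor list was higher in 8 of 11 cases and lower in 0. The binding proteins Igfbp7 and Igfbp5 rose by 6.45 and 5.54, and the ligands Igf1 and Igf2 by 3.02 and 2.81. Igfbp5, which smooth muscle and bone cells secrete, read 10.11, 9.99 and 10.21 in day 13 GFP+ samples, against 4.34, 4.81 and 4.55 in day 5 samples. Igf2 averaged 10.96 in day 13 GFP+ cells, against 8.14 in day 5 cells and 6.67 in aortic cells.

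Transcription factors of the early mesoderm were lower in day 13 GFP+ cells. Of 13 factors of the primitive streak, 7 were lower and 0 higher (4 lower when only probe sets above the median level were tested). Mixl1 read 4.36, 3.60 and 3.52 in day 13 GFP+ samples, against 11.01, 10.79 and 10.81 in day 5 samples, the largest loss of any named gene (log2 difference -7.04 ± 0.33, adjusted p = 4.59e-10). Eomes and Lhx1 fell by 4.79 and 3.69, and Mesp1, the first factor of heart mesoderm, by 1.53. All 3 samples of day 13 GFP+ cells were under every day 5 sample in Mixl1, Eomes, Lhx1 and Mesp1.

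Of 20 factors of lateral, cardiac and blood-forming mesoderm, 8 were lower and 4 higher. Over all probe sets 16.9% were lower and 14.3% higher, so 4 higher among 20 is not far from the share of all. Hand1 read 5.96, 5.38 and 4.97 in day 13 GFP+ samples, against 8.95, 9.97 and 9.79 in day 5 samples (log2 difference -4.13 ± 0.26, adjusted p = 6.72e-09). Foxf1 and Tbx3, both of lateral mesoderm, fell by 3.50 and 3.49, and Etv2, which opens the endothelial and blood fates, by 1.66. The members that rose were Foxc1 (2.64), Foxc2 (1.05), Isl1 (1.30) and Hand2 (0.66), the last of which did not pass without day 5 sample 3 (0.55) or 6 (0.69), without day 13 GFP+ sample 3 (0.41) or after median centring (0.55). Foxc1 and Foxc2, forkhead factors of mesenchyme and vessel development, were also present in the aortic cells at 9.01 and 6.90.

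Genes of the fetal and stem cell chromatin state fell, 11 of 17, and 3 rose. Sall4 read 6.11, 5.80 and 5.22 in day 13 GFP+ samples, against 9.82, 9.79 and 9.73 in day 5 samples. Lin28a, an RNA-binding protein that blocks the making of let-7, fell by 3.66, and Dnmt3b, which writes new DNA methylation, by 3.75. Uhrf1, which keeps methylation through division, fell by 2.34, whereas Tet2, which oxidises it, rose by 2.41.

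Genes of DNA replication were lower in 34 of 36 cases and higher in 0, with a median difference of -1.95, and those of mitosis and cytokinesis in 30 of 30, with a median of -1.77. Cdc6, a licensing factor that loads the replicative helicase, read 4.36, 4.79 and 4.70 in day 13 GFP+ samples, against 7.72, 7.84 and 7.80 in day 5 samples (log2 difference -3.17 ± 0.22, adjusted p = 1.89e-08). Gins1 and Pole, a part of that helicase and the leading strand polymerase, fell by 3.01 and 3.00. Kif11, the motor that pushes the spindle poles apart, read 6.11, 6.91 and 7.10 in day 13 GFP+ samples, against 8.76, 8.70 and 8.66 in day 5 samples (log2 difference -2.0 ± 0.24, adjusted p = 7.59e-06). The samples did not overlap in Cdc6 or Kif11. In the aortic cells the means were lower again, 3.60 for Cdc6 and 3.75 for Kif11, and the GFP- cells of day 13 stood at 5.53 and 7.11. Mybl2 and Foxm1, which switch on mitotic genes, fell by 2.79 and 2.05, and Bub1 and Ndc80 of the spindle checkpoint and the kinetochore by 2.43 and 2.15.

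The promoters of the 2 sets held different motifs. The same promoters were searched, each with the 250 bases before the start and a short stretch after it. An E2F site (TTTCCCGC, TTTCGCGC, TTTGCCGC or TTTGGCGC) on either strand was in 13 of 29 replication genes with a promoter in the table (44.8%). It was in 1 of 25 mitosis genes (4.0%), beside 2.6% of all 27025 genes. The CHR element (TTTGAA on either strand), through which mitotic genes are held off in resting cells, was in 18 of 25 mitosis genes (72.0%). It was in 5 of 29 replication genes (17.2%), beside 20.2% of all genes. No match of one motif can also be a match of the other, while 2 E2F matches can overlap. Below, only the 250 bases before the start are printed. Cdc6 (chr11:98907901-98908150, plus strand) and Mcm5 (chr8:75109259-75109508, plus strand) are shown for the E2F site, and Kif11 (chr19:37376132-37376381, plus strand) and Ect2 (chr3:27153879-27154128, minus strand) for the CHR element, with every match in capitals (RefSeq, GRCm38.p6).
Cdc6: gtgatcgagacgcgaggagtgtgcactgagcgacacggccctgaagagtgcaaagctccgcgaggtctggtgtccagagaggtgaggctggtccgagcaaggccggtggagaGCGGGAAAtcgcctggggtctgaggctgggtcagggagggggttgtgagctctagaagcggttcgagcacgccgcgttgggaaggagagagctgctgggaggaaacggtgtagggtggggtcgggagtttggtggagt
Mcm5: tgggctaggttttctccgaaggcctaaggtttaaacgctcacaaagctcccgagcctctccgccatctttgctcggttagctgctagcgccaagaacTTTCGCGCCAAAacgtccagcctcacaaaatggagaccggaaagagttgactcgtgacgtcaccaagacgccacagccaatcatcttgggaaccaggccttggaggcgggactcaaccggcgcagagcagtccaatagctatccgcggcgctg
Kif11: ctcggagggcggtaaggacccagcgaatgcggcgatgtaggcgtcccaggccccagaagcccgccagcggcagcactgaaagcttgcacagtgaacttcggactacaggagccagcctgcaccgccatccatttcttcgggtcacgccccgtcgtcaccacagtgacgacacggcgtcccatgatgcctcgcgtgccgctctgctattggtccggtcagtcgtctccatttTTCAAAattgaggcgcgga
Ect2: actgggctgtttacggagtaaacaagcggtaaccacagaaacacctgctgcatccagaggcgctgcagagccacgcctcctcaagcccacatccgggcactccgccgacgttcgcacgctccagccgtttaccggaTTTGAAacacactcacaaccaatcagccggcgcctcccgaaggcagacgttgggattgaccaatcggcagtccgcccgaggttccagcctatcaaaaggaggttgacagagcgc
The matches begin at base -138 in Cdc6, at -153 and -149 in Mcm5, where 2 overlap, at -19 in Kif11 and at -114 in Ect2, counted from the start of the gene. Mcm5, a helicase subunit, fell by 3.05, and Ect2, which starts the cleavage furrow and was picked for its promoter, by 1.79.

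Of 17 genes of the G1 phase, made up of inhibitors of cyclin-dependent kinases, D cyclins and genes of cell cycle arrest, 11 rose and 2 fell. Cdkn1a (p21), an inhibitor of cyclin-dependent kinases, read 11.03, 10.89 and 10.93 in day 13 GFP+ samples, against 8.77, 9.03 and 8.98 in day 5 samples (log2 difference 2.03 ± 0.15, adjusted p = 4.05e-08). Cdkn2b (p15) rose by 1.97, the retinoblastoma family genes Rbl2 and Rb1 by 2.38 and 1.38, and Gadd45b by 3.54. The members that fell were Ccnd1 (cyclin D1, -1.54) and Rbl1 (-1.05). Rbl1, which dividing cells make, and Rbl2, which resting cells make, therefore went opposite ways.

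Myc and the genes that make ribosomes were lower in 21 of 21 cases, with a median of -1.89. Myc read 6.06, 6.02 and 5.92 in day 13 GFP+ samples, against 8.80, 8.86 and 8.79 in day 5 samples (log2 difference -2.82 ± 0.23, adjusted p = 1.19e-07), and in aortic cells it was higher again at 8.05. Dkc1, the enzyme that modifies uridines of ribosomal RNA, fell by 3.42, the polymerase I chains Polr1b and Polr1a by 2.42 and 2.22, and Heatr1 and Nolc1 by 2.53 and 2.35. Of 26 nuclear genes of oxidative phosphorylation, 17 were lower and 0 higher, and with cyclic loess 9 were lower: the largest losses were Ndufb8 and Ndufs1 of complex I (-1.01 and -1.01) and Atp5b of the ATP synthase (-0.90).

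Imprinted genes, which are read from 1 parental copy, were higher in 9 of 18 cases and lower in 2. Plagl1, a zinc finger factor of growing tissue, read 10.11, 10.15 and 10.28 in day 13 GFP+ samples, against 4.56, 5.12 and 4.79 in day 5 samples (log2 difference 5.36 ± 0.22, adjusted p = 1.18e-10). H19, a noncoding RNA beside Igf2, rose by 2.96. The paternal gene Dlk1 and its maternal noncoding neighbour Meg3 rose by 3.81 and 3.00. The members that fell were Phlda2 (-3.72) and Peg10 (-1.88), both known for the placenta. Plagl1 and H19 averaged 5.59 and 3.96 in aortic cells, under the day 13 GFP+ means of 10.18 and 10.60.

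The array also carried 529 probe sets named for microRNA genes, short RNAs that silence messages through bases 2 to 8, the seed. It cannot separate the mature microRNA from its precursor or host transcript, and 247 of the 529 had both means under the 25th percentile. Of the 529, 97 (18.3%) were higher and 20 (3.78%) lower, with a median of 0.04. Over all probe sets the shares were 14.3% and 16.9%. Of the 97, 8 and 33 lay in 2 clusters of chromosome 12 described below, so many of these calls, though not most, came from 1 region. The microRNA genes below were picked after their values were seen. Where members of a family share a seed, the mature sequences are shown from RefSeq (GRCm38.p6) with the seed in capitals, first those that were higher in day 13 GFP+ cells and then those that were lower.
mmu-miR-27b-3p: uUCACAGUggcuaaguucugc
mmu-miR-27a-3p: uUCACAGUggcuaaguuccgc
mmu-let-7c-5p: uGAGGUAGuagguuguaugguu
mmu-let-7e-5p: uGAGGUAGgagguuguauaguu
mmu-miR-181b-5p: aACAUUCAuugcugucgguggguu
mmu-miR-181a-5p: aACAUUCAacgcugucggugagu
mmu-miR-302b-3p: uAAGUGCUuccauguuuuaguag
mmu-miR-302d-3p: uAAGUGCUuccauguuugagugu
mmu-miR-302c-3p: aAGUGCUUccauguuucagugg

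Mir27b (mature arm at chr13:63300760-63300780, plus strand) read 5.98, 6.62 and 6.54 in day 13 GFP+ samples, against 2.11, 2.65 and 2.68 in day 5 samples (log2 difference 3.90 ± 0.27, adjusted p = 1.76e-08). Its cluster neighbour Mir23b rose by 2.84. The paralogous Mir27a (chr8:84208727-84208747, plus strand), which shares the seed, was higher by 0.71, but it lost its call without any 1 of the day 5 samples or without day 13 GFP+ sample 5 or 6 (0.64 to 0.73), after median centring (0.61) and after repeated quantile normalization (0.58). The Mir27b samples formed 2 groups with a wide gap, while the Mir27a groups were closer.

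Mir145a and Mir143, the pair best known in smooth muscle, rose by 2.39 and 1.44. Mir145a read 3.64, 4.41 and 4.28 in day 13 GFP+ samples, against 2.16, 1.35 and 1.65 in day 5 samples, and averaged 4.80 in the aorta. The host transcript of that pair, Carmn, rose by 1.40. Of 11 let-7 genes 5 were called, all higher, beside the loss of Lin28a given above. Mirlet7e and Mirlet7a-2 rose by 1.30 and 0.81. Mirlet7c-1 read 1.87, 4.19 and 4.50 in day 13 GFP+ samples, against 1.89, 1.87 and 1.88 in day 5 samples, a difference of 1.64 that was 2.46 without sample 3 and did not pass without any other single sample (1.15 to 1.64). Mirlet7f-1 (0.88) lost its call without day 13 GFP+ sample 3 (0.75) or day 5 sample 5 (0.54), and Mirlet7d (0.74) without any 1 sample other than day 13 GFP+ sample 3 (0.43 to 0.83). Mirlet7c-1 lies with Mir99a in the host transcript Mir99ahg, and the differences of these were 2.41 and 2.29, against 3.11 and 3.17 without sample 3, which was near the day 5 level in all 3. Of the miR-181 family, Mir181b-1 and Mir181b-2 rose by 2.74 and 2.31. Mir181a-2 was higher by 1.16 and did not pass without day 5 sample 5 (1.08) or day 13 GFP+ sample 5 (1.08) or 6 (0.95).

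The genes of the miR-302 cluster, known from pluripotent cells and early embryos, were 5 of the 20 that were lower, and all 5 measured genes of the cluster fell. Mir302b (mature arm at chr3:127545275-127545297, plus strand) read 1.45, 1.54 and 1.33 in day 13 GFP+ samples, against 4.91, 4.27 and 3.80 in day 5 samples (log2 difference -2.88 ± 0.27, adjusted p = 4.35e-07). Mir302c, Mir302a, Mir302d and Mir367 fell by 2.51, 2.37, 2.03 and 0.60. At day 0 the mean of Mir302b was 1.97 and in the aorta 1.49, and in the GFP- cells of day 13 it was 1.76, so the day 5 mean was the highest of the 5 groups. Outside the cluster the largest losses were Mir1949 (-3.14), Mir290a (-2.50), of a cluster known from embryonic stem cells, and Mir1983 (-1.78). The mature miR-302b and miR-302d shown above share their seed, and in miR-302c the same letters begin 1 base earlier.

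The Dlk1 to Meg3 region on chromosome 12 holds many microRNA genes. Of 11 microRNA genes of the proximal cluster (Mir673 to Mir136), 8 were higher, and of 36 genes of the distal cluster (Mir379 to Mir369), 33 were higher and 0 lower, with medians of 0.67 and 1.14. The noncoding hosts there, Meg3, Rian and Mirg, rose by 3.00, 1.13 and 0.97. Meg3 read 9.31, 9.81 and 9.99 in day 13 GFP+ samples, against 6.75, 6.70 and 6.65 in day 5 samples. Neighbouring probe sets of 1 transcription unit are not independent measurements.

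**Figure D4:**
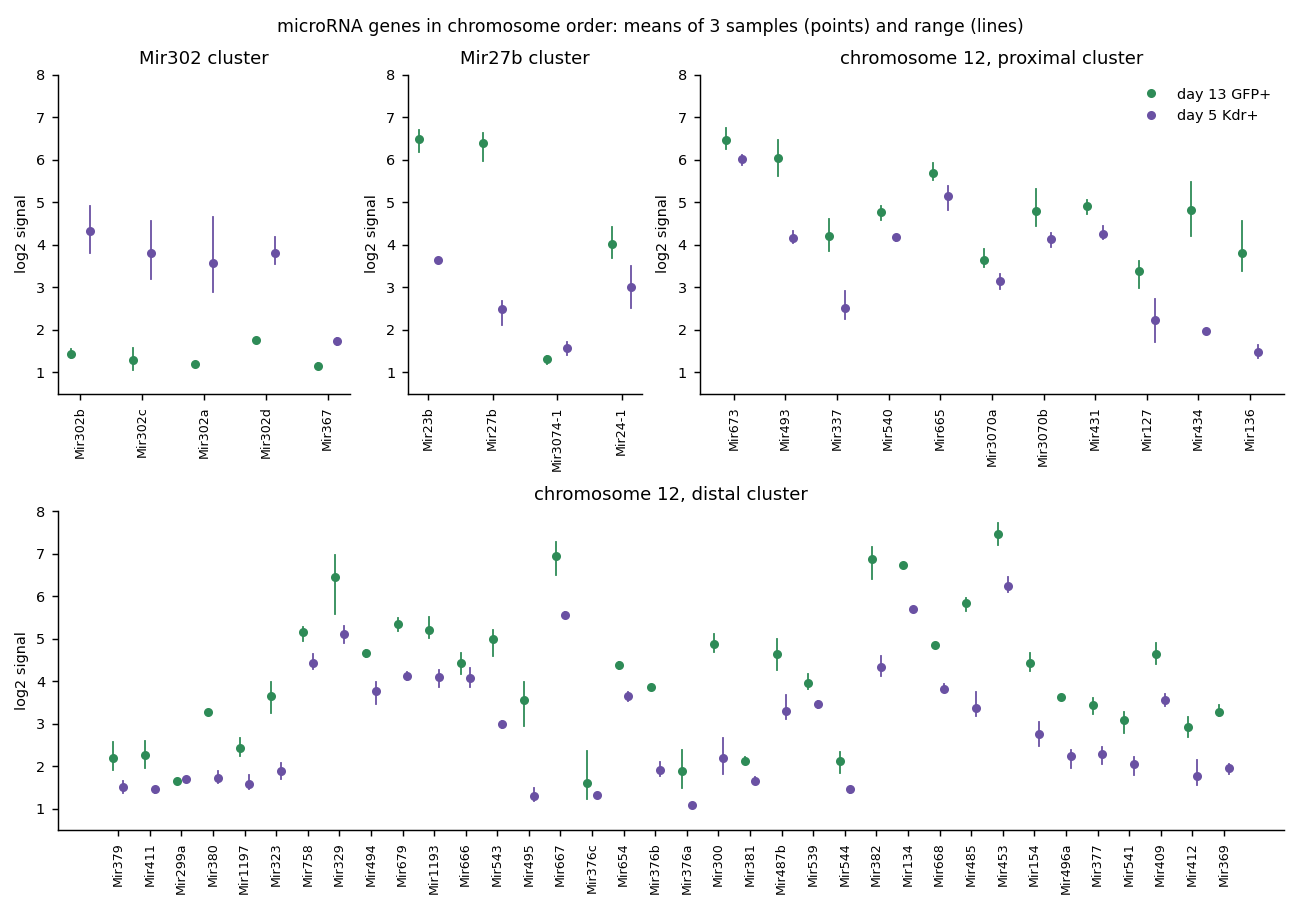
Mean log2 signal of microRNA genes in day 13 GFP+ and day 5 Kdr+ cells, 3 samples each, in their order along the chromosome within the Mir302 cluster, the Mir27b cluster and the 2 chromosome 12 clusters; thin lines span the samples. The Mir302 genes lie lower in day 13 GFP+ cells, and 8 of 11 and 33 of 36 of the chromosome 12 genes passed as higher.

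Genes that set the response of a vessel wall were described last. Of 19 genes of calcium handling, potassium channels and caveolae, 10 were higher and 0 lower, led by Cavin1 and Cav1, the coat proteins of caveolae (3.49 and 2.38), and with the L-type calcium channel Cacna1c at 1.11. Kcnma1, the large potassium channel that relaxes smooth muscle, was higher by 1.23, but by 1.04 (adjusted p = 0.0564) without day 13 GFP+ sample 6. Its smooth muscle partner Kcnmb1 rose by 0.98 to a mean of 5.61, against 4.63 at day 5 and 10.29 in the aorta.

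Of 20 vasoactive receptors and genes of the nitric oxide to cGMP arm, 10 were higher and 2 lower. Prkg1, the kinase that cGMP activates to relax smooth muscle, read 7.80, 7.65 and 7.72 in day 13 GFP+ samples, against 3.55, 3.40 and 3.31 in day 5 samples (log2 difference 4.30 ± 0.15, adjusted p = 3.25e-11). The 2 chains of the nitric oxide receptor, Gucy1b1 and Gucy1a1, rose by 3.24 and 2.19, so that receptor and kinase of this arm rose together. The sphingosine phosphate receptor S1pr3 and the endothelin receptor Ednrb rose by 3.08 and 2.49. The members called lower were the angiotensin receptor Agtr1a (-0.83) and the oxytocin receptor Oxtr (-0.50). The call of Agtr1a was lost when any 1 of the 6 samples was left out (-0.91 to -0.75), and that of Oxtr without sample 3 or 5 of either group (-0.49 to -0.33).

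Secreted factors of inflammation were higher in 5 of 15 cases and lower in 0 (9 higher in a fit of the 2 groups alone), with Cxcl12 (2.43), the complement inhibitor Serping1 (2.36) and Csf1 (2.09) in front. Genes of the interferon response and of antigen presentation were higher in 9 of 20 cases and lower in 1, Ifitm1 (-0.52), whose call was lost without day 5 sample 3 (-0.45) and without day 13 GFP+ sample 5 (-0.49) or 6 (-0.52). B2m, the light chain of class I molecules, read 9.82, 10.28 and 10.21 in day 13 GFP+ samples, against 7.49, 7.20 and 7.14 in day 5 samples (log2 difference 2.83 ± 0.17, adjusted p = 4.2e-09), and H2-K1, a heavy chain, rose by 1.77. The probe sets of H2 genes can share sequence, so that their levels may be mixed.

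Markers of other cell types were counted in the same way, and their part in the results was not tested. Of 17 heart muscle genes, 7 were higher and 0 lower (12 higher without either day 13 sample numbered 3, a setting added after the data were seen). Their summed signal (on the linear scale) was 1771 to 1931 in day 13 GFP+ samples, against 333 to 342 in day 5 samples, and 1499 to 2439.8 in GFP- samples. Tnni1 and Tnnt2, troponin chains of the embryonic heart, rose by 3.76 and 3.46. Ttn (titin) read 4.83, 6.91 and 6.79 in day 13 GFP+ samples, against 3.38, 3.45 and 3.39 in day 5 samples, a difference of 2.77 that was 3.45 without sample 3. The atrial chain Myl7 read 3.11, 5.85 and 5.92 in day 13 GFP+ samples and 3.43, 3.12 and 2.82 in day 5 samples, a difference of 1.84 (adjusted p = 0.0328) that was 2.76 without sample 3. Without day 13 GFP+ sample 5 or 6 the Myl7 difference no longer passed (1.39 and 1.36), nor without any single day 5 sample (1.99, 1.84 and 1.69), nor in a fit of the 2 groups alone (1.84). The late heart genes Myh6 and Nppa averaged 4.21 and 4.16 in day 13 GFP+ cells, against 3.61 and 3.94 in day 5 cells, and did not pass, although the difference of Myh6 was 1.11 (adjusted p = 0.0167) without sample 3.

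Fibroblast and tendon markers were higher in 7 of 12 cases and lower in 1, with sums of 562.9 to 1612 in day 13 GFP+ samples and 473.9 to 609.3 in day 5 samples. Scx (scleraxis), a tendon transcription factor, read 7.80, 8.78 and 8.81 in day 13 GFP+ samples, against 4.18, 3.81 and 3.77 in day 5 samples (log2 difference 4.55 ± 0.31, adjusted p = 1.58e-08). Mkx, another, had a difference of 2.07, and of 2.72 without sample 3, and Dcn (decorin) one of 3.56, and of 4.32 without it. Of 9 cartilage and bone markers 3 were higher, Acan, Sox9 and Comp (1.25, 1.22 and 1.05), and Alpl was lower (-3.22). Of 11 mural and pericyte markers, 4 were higher, among them Mcam (3.58) and Cspg4 (1.86), and Notch3 was lower as given above.

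Markers of lineages outside mesenchyme were counted next. Over all probe sets 14.3% were higher and 16.9% lower, so 1 or 2 calls in lists this short are read as no trait of a cell type. Of 12 endothelial markers only Erg was higher (3.02), a factor that mesenchyme also uses, while Cdh5 read 4.77 in day 13 GFP+ cells, 4.23 in day 5 cells and 6.87 in GFP- cells and did not pass against day 5 (adjusted p = 0.279). Without day 5 sample 3, 2 endothelial markers were higher and 1 lower. Of 12 endoderm markers 1 was higher, Spink1 (1.40), and their sums were 218.3 to 250.5 in day 13 GFP+ samples, against 199.6 to 210.3 in day 5 samples. The GFP- samples, by contrast, summed to 880.1 to 1102. Of 13 epithelial markers 5 were lower, among them Epcam (-2.05), Krt8 (-1.84) and Krt18 (-1.60), and Krt19 was higher by 1.10, but only by 0.64 (adjusted p = 0.093) without day 13 GFP+ sample 3 and by 1.01 (0.0641) without day 5 sample 5. Of 13 pluripotency genes 1 was higher and 2 lower, of which Nanog lost the most (-3.63), with 4.08, 3.37 and 3.91 in day 13 GFP+ samples and 7.68, 7.30 and 7.27 in day 5 samples. Of 7 fat cell markers 1 was higher, Lpl (3.04), and of 8 mesothelial markers 2 were higher and 2 lower, the largest loss being Lrrn4 (-3.99) and the largest gain Aldh1a2 (1.87), the retinoic acid enzyme. Of 10 blood, 11 leukocyte, 12 skeletal muscle and 10 neural markers, 1, 2, 1 and 1 were higher and 0, 0, 1 and 1 lower, in this order. The call of the blood list, Itga2b, was lost without day 5 sample 3 or day 13 GFP+ sample 3 or 6, that of the neural list, Nes, without day 5 sample 5 or day 13 GFP+ sample 3, and of the 2 leukocyte calls, Cd68 (1.18), a lysosomal protein of macrophages, and Laptm5 (0.80), that of Laptm5 without any 1 sample other than day 13 GFP+ sample 6. The defining genes Hbb-bh1, Ptprc, Myog and Sox1 read 2.25, 1.84, 4.76 and 2.86 in day 13 GFP+ cells, against 2.42, 2.06, 4.55 and 3.01 in day 5 cells.

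The day 13 GFP+ samples differed more among themselves than the day 5 samples did. The SD over 3 samples exceeded 1 in 92 probe sets of day 13 GFP+ cells and in 6 of day 5 cells, and its median over all probe sets was 0.152 and 0.115. In 88 of the 92, samples 5 and 6 were nearest each other, with sample 3 lowest in 64 and highest in 24. Among the 30 named genes with the largest SD, sample 3 was the lowest in 27, and GFP- sample 3 moved the same way from its fellows in 30 of 30. Replicate 3 was therefore alike in both sorts of day 13, and no sample of day 5 stood out in this way.

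The 8 genes with the largest SD were Tnmd, Thbs4, Chodl, Penk, Abi3bp, Ogn, Meox2 and Slc5a7. Tnmd (tenomodulin), a membrane protein of tendon, read 3.16, 8.55 and 8.83 in day 13 GFP+ samples, against 2.86, 2.48 and 3.05 in day 5 samples. Penk, the enkephalin precursor, read 6.81, 10.15 and 10.51 in day 13 GFP+ samples, against 4.15, 4.59 and 4.70 in day 5 samples. Sample 3 was near the day 5 level in Tnmd, Thbs4, Chodl and Meox2, while samples 5 and 6 were high. Without sample 3 the differences were 5.89 for Tnmd (with it 4.05), 4.58 for Thbs4 (3.20), 4.09 for Chodl (2.84), 5.85 for Penk (4.68), 4.08 for Abi3bp (2.93), 3.89 for Meox2 (2.86) and 4.20 for Slc5a7 (3.19). The calls of 4 of these genes were lost without other samples: the Tnmd difference was 3.20 and 3.06 without day 13 GFP+ samples 5 and 6 and 3.89 to 4.17 without each day 5 sample, that of Thbs4 2.57 and 2.46 without samples 5 and 6 and 3.08 without day 5 sample 6, that of Chodl 2.22 without sample 5 and 2.22 without sample 6, and that of Abi3bp 2.16 without sample 6. For Penk, the difference was 4.0 without sample 6 and stayed past the threshold. Serpina3n ran the other way, with 9.05, 6.25 and 6.43 in day 13 GFP+ samples, against 2.54, 2.94 and 2.74 in day 5 samples.

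**Figure D5:**
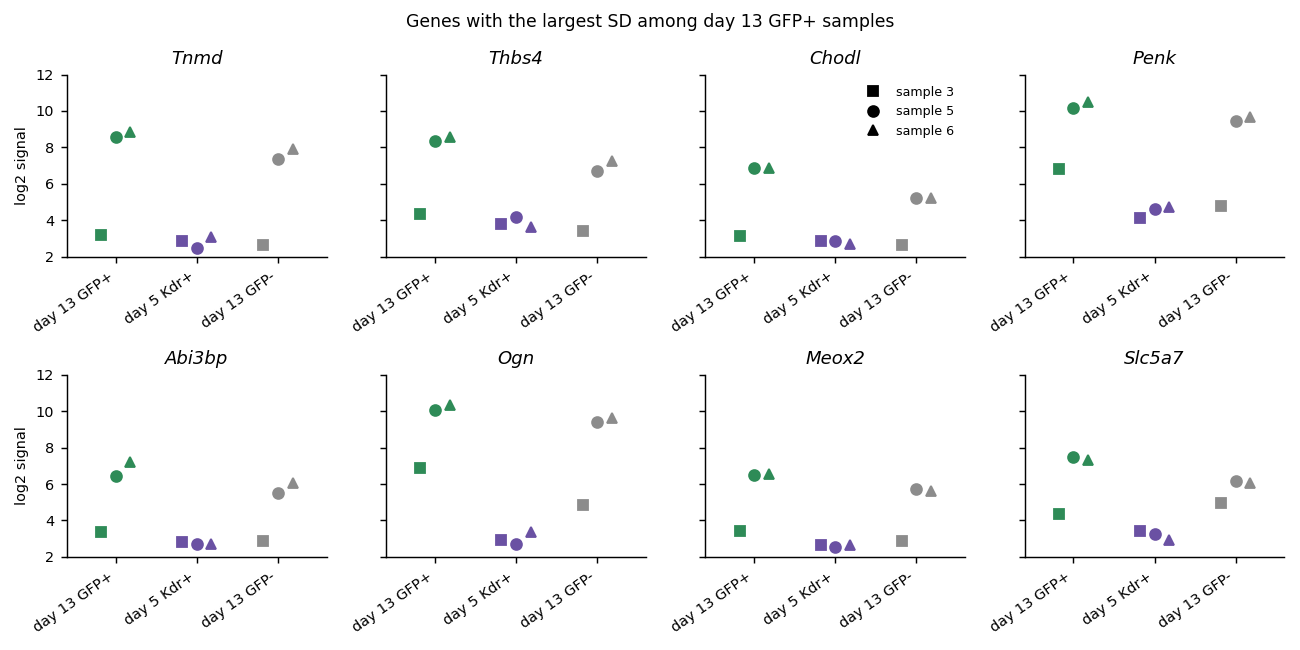
Log2 signal of the 8 genes with the largest SD among day 13 GFP+ samples, by sample number 3, 5 and 6, in day 13 GFP+, day 5 Kdr+ and day 13 GFP- cells. Sample 3 of both day 13 sorts lies below samples 5 and 6 in all 8 genes, and the day 5 samples lie together.

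The GFP- cells of the same day were the nearest group at hand. Day 13 GFP+ cells were higher than GFP- cells in 508 probe sets (2.02%) and lower in 634 (2.52%), counts that were 307 and 346 without GFP+ sample 6 and 310 and 419 without GFP- sample 5. Of the thin filament genes 3 of 17 were higher in GFP+ than in GFP- cells and 0 lower, and of the myosin group 1 of 14 and 0. They included Tagln (difference 1.04, adjusted p = 0.00167) and Myl9 (1.23, 0.00124), whereas Acta2 itself read 11.23, 11.47 and 11.27 in GFP+ samples and 10.16, 11.00 and 10.85 in GFP- samples and did not pass (0.65, 0.151). It was higher in GFP+ cells in all 3 same-numbered pairs, and with the replicate number as a block the adjusted p was 0.146. The replication gene Mcm5 was lower in GFP+ than in GFP- cells (-0.93, 0.00162). Among matrix genes, 4 of 11 fibrillar and 6 of 11 other collagen chains were higher than in GFP- cells. So were 5 of 15 collagen enzymes, 5 of 20 proteoglycan and matricellular genes and 5 of 15 elastic fibre genes. In the basement membrane list 1 of 18 was higher and 1 lower. GFP- cells were not tested against day 5, but their means of Postn and Anxa1 were 8.21 and 7.22, against 2.70 and 2.74 at day 5. Of the 271 genes given with a difference from day 5 that were called, 84 also differed between the 2 sorts, 51 higher and 33 lower in GFP+ cells. Over all probe sets 4.53% differed between the sorts. Both comparisons use the same GFP+ samples and many of these genes were picked for large differences, so the 84 are not read as an overlap. Against the aortic cells, day 13 GFP+ cells were higher in 4923 probe sets (19.5%) and lower in 4449 (17.7%), together 37.2%, and in that comparison culture, age and source of the cells cannot be told apart.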

How the data were processed

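The 15 samples were hybridised to whole-transcript mouse arrays of Affymetrix. Values deposited by the authors are on a log2 scale and came from RMA in affy 1.36.1 under R 2.15.1, per the submitters' processing notes. Of 25206 probe sets, 23185 had a gene name through the reference table and 2021 had none. Groups were taken from the sample labels, 3 samples each. A limma fit (limma 3.58.1 and statmod 1.5.0 in R 4.3.3) gave each of the 5 groups a mean and 1 shared spread with 10 residual degrees of freedom, and p-values were adjusted by Benjamini-Hochberg over all probe sets. No probe set was filtered out. The fit was tested on simulated data. Tables and figures were made in Python 3.11.15 with pandas 2.3.3 and matplotlib 3.10.9.

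Named genes were Acta2 and Kdr, the 15 highest and 15 lowest differences without overlap between groups, up to 6 members of each gene list with the largest differences, the 8 genes with the largest SD among day 13 GFP+ samples, and all members of the thin filament, myosin and smooth muscle transcription lists. Genes outside this rule (members that went against their list, genes that crossed the quartiles, Kif11 and Ect2, the late heart genes, marker genes at the low end, microRNA genes and their hosts) were chosen after their values were seen. The lists and the comparison were chosen with earlier results of these data known.

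Deviations of same-numbered samples from their group means were correlated. Between day 13 GFP+ and day 5 cells the values were 0.034, 0.022 and 0.056, so the numbers were not used as pairs there. Between GFP+ and GFP- cells they were 0.597, 0.403 and 0.397. GFP+ sample 5 with GFP- sample 6 gave 0.345, and GFP+ sample 6 with GFP- sample 5 gave 0.278. Sample 3 of either sort with sample 5 or 6 of the other gave -0.50 to -0.42. Sample 3 thus went with its number, while the pairing of samples 5 and 6 is not settled. Alternatives were other scalings, a filter on low levels, other variance settings, a fit of 2 groups, the replicate number as a block and leaving out each sample.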

Additional observations from a re-analysis of the deposited data

Results flagged for a closer look

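Both sorts of day 13 were set against the same day 5 samples. In 6 genes named above the difference from day 5 passed in GFP+ cells and had the opposite sign in GFP- cells, where it was small and near 0 for Epcam, Krt18 and Nodal and was not tested, and the direct difference between the sorts passed (limma, Benjamini-Hochberg over all probe sets). These changes share the day 5 samples, so only the difference between the sorts is a test. The epithelial genes Epcam and Krt18 were lower in GFP+ cells by -2.05 and -1.60 against day 5, while in GFP- cells their differences were 0.10 and 0.01. The sorts differed by -2.15 for Epcam (adjusted p = 8.79e-05) and by -1.61 for Krt18 (adjusted p = 8.63e-06). Hey2, a Notch target that represses transcription, was -0.91 in GFP+ cells and 0.24 in GFP- cells, a difference of -1.15 (adjusted p = 0.00363). Nodal was -0.92 in GFP+ cells and 0.05 in GFP- cells, a difference of -0.97 (adjusted p = 0.0107). Pdgfrb, the receptor of mural cells, was 0.87 in GFP+ cells and -0.21 in GFP- cells, a difference of 1.08 (adjusted p = 0.000719). Kcnma1, the large potassium channel, was 1.23 in GFP+ cells and -0.29 in GFP- cells, a difference of 1.53 (adjusted p = 0.0172). The calls of Nodal and Kcnma1 were lost in a fit of the 2 sorts alone (adjusted p = 0.103 and 0.155) and without GFP+ sample 6 (adjusted p = 0.0524 and 0.0894), and that of Kcnma1 also without GFP+ sample 5 (adjusted p = 0.0582). The other 4 passed in every setting run. With 3 samples in each group, no sample was tested for standing apart from its group.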

How the results depend on the processing

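Of 279 genes given with a difference from day 5, 271 were called, 247 of these kept their call under every alternative in which they were tested, and 0 changed direction. The counts of the whole comparison, 3598 higher and 4269 lower, were 3132 to 3325 higher and 3756 to 4009 lower with 1 sample left out, and 3904 and 4728 in a fit of the 2 groups alone. The split moved with the scaling: 45.7% of the calls were higher as deposited, 37.2% (3005 higher, 5073 lower) after median centring and 52.9% (4160 and 3700) with cyclic loess. Over the gene lists, 301 higher and 198 lower became 281 to 338 and 179 to 219. The replicate block gave 3880 higher and 4575 lower as a fixed effect against day 5, where the samples share only a number. It gave 635 and 827 between GFP+ and GFP- cells, where the numbers may pair them. With the block the calls of Mirlet7c-1, Mirlet7d and Oxtr against day 5 were lost (adjusted p = 0.0558, 0.0562 and 0.0513 in the first form that lost each), and no other call printed here against day 5 or between the 2 sorts was lost or gained. Between GFP+ and GFP- cells, 508 higher and 634 lower became 193 and 266 in a fit of these groups alone, 1383 and 1562 with array weights, and 307 to 537 and 346 to 584 with 1 sample left out; the cause was not tested. Against the aorta, 4449 lower became 2545 when only the 12603 probe sets above the median level were tested, a setting with fewer tests. Of 1536 list counts recomputed, 90 moved by over 1.5 times. Signals near the lower quartile limit what can be said of genes low in both groups.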
